A study of Mus musculus with 12 samples.

Results

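The genes described here are 10 S100, galectin, annexin and other genes that T cells are known to raise as they become effector cells. They are S100a4, S100a6, S100a10, S100a11, Lgals1, Lgals3, Anxa1, Anxa2, Vim and Crip1. They were chosen by name, with earlier results of these data known, all 10 were found among the 25078 genes of the count table, and all 10 passed the filter on low counts. They were measured by RNA-seq in donor T cells sorted from the liver of mice on day 6 after hematopoietic cell transplantation (HCT). The 12 libraries made 6 groups of 2, for CD4+ and for CD8+ T cells of 3 donor genotypes. These are WT, STAT3-/- and STAT3-/-PD-1-/-, which the labels write as WT, STAT3ko and STAT3ko PD-1ko. All recipients were irradiated WT BALB/c mice that received T cell-depleted bone marrow of WT C57BL/6 mice together with CD90.2+ T cells of C57BL/6 background and of the named genotype. STAT3-/- donors carried floxed Stat3 alleles deleted by Cre under the Cd4 promoter, which acts in T cells. STAT3-/-PD-1-/- donors carried in addition a PD-1 deletion present in every cell of the donor. The age of the mice was not given. Each library was made from cells pooled over 3 recipients, sorted as H-2Kb+TCRβ+ cells that were CD4+ or CD8+, and H-2Kb marks cells of the injected T cells and of the WT marrow alike. The 12 libraries held between 21676125 and 24551477 counts. At this depth each of the 10 genes had at least 564 counts in every library.

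S100 proteins are small calcium-binding proteins that act on other proteins inside the cell and, when secreted, outside it. S100A10 is the member of the family that no longer binds calcium and that forms a complex with annexin A2 at the plasma membrane. Galectins bind the sugar chains of cell surface proteins, and annexins bind membranes in the presence of calcium. Vimentin builds intermediate filaments, and CRIP1 is a small protein with a LIM domain. In T cells, transcripts of most of these genes are known to be lower in naive cells than in effector and memory cells.

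Of the 10 genes, 4 lie in the S100 cluster of mouse chromosome 3 (build mm10). S100a4 (chr3:90603770-90606045) and S100a6 (chr3:90612894-90614414) stand 6848 bases apart, with S100a5 between them, and S100a11 (chr3:93520496-93526288) and S100a10 (chr3:93555117-93564645) stand 28828 bases apart. The gap between these neighbouring pairs is 2.91 Mb. The other 6 genes are on separate chromosomes: Lgals1 (chr15:78926725-78930465), Lgals3 (chr14:47373860-47386167), Anxa1 (chr19:20373434-20390671), Anxa2 (chr9:69453683-69491785), Vim (chr2:13574311-13582826) and Crip1 (chr12:113152012-113153879). Anxa1 is on the minus strand and the other 9 are on the plus strand.

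RefSeq promoters (GRCm38.p6) were matched for 8 of the 10 genes, S100a10 and Lgals1 not being among them, and the 250 bases before the start were searched on both strands for 4 short motifs. The STAT motif TTCNNNGAA was in 0 of 8, against 7.02% of 32851 promoters. The AP-1 motif TGANTCA was in 2 of 8, S100a11 and Anxa2, against 6.75% of all. CCACCC, a motif of KLF factors, was in 4 of 8 against 28.1%, and the GC box GGGCGG was in 4 of 8 against 32.7%. Matches of different motifs can overlap, and a match is a description only. The promoters with the AP-1 motif are shown because they are the ones of the set that hold a STAT or AP-1 motif in this window. They read as follows on the plus strand, 5′ to 3′, ending at the base before the start, with each TGANTCA match in capitals. S100a11 spans chr3:93520246-93520495 and Anxa2 spans chr9:69453433-69453682.
S100a11: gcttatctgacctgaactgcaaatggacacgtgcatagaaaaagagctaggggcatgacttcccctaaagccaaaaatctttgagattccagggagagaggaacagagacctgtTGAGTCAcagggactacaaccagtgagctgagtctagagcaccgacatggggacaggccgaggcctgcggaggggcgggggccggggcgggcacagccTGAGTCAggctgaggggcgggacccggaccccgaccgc
Anxa2: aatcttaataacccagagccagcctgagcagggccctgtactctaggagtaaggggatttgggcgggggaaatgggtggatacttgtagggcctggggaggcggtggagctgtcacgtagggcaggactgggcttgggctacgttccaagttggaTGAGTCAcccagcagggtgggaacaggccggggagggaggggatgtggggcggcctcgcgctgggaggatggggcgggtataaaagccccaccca
The S100a11 matches begin 136 and 38 bases before the start and the Anxa2 match begins 95 bases before it.

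The set was abundant in all 12 libraries. Together the 10 genes took between 0.643% and 1.01% of the counts of a library. Levels below are CPM values (counts scaled to library size) after TMM scaling (normalized CPM), and levels of different genes were compared per kilobase of exon (normalized RPKM). On the RPKM scale the mean over the 12 libraries was highest for S100a4, at 2014, which ranked 6 among 12334 genes, followed by Lgals1 at 1801, S100a10 at 1318, Vim at 1247, Crip1 at 1010 and S100a6 at 876. Anxa2 stood at 631, Lgals3 at 302 and S100a11 at 270 RPKM. Anxa1 was the exception, at 51.9 RPKM and rank 1525.

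The labels were checked on the deleted genes and on the sort. Stat3 stood at 365 and 467 normalized CPM in WT CD4+ T cells, at 139 and 165 in STAT3-/- and at 157 and 221 in STAT3-/-PD-1-/-. In CD8+ T cells it stood at 391 and 387, at 148 and 136, and at 154 and 237. Pdcd1, which encodes PD-1, was between 235 and 455 CPM in the 8 libraries with an intact gene and at 55.2, 26.2, 93.9 and 66.1 in the 4 libraries of STAT3-/-PD-1-/- donors. Both genes followed their labels, although reads from exons outside a deleted segment are still counted. Cd8a reached at most 5.68 CPM in CD4+ libraries and at least 594 in CD8+ libraries.

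Among CD8+ T cells that lacked both STAT3 and PD-1, 4 of the 10 genes were lower than in WT: S100a4, S100a6, Lgals3 and Crip1 fell by a factor of 1.45 to 2.31. S100a10, S100a11, Lgals1, Anxa1, Anxa2 and Vim did not pass the test. A gene was called when its p from the edgeR quasi-likelihood test, adjusted over all genes tested by Benjamini-Hochberg, was under 0.05. Of the 12002 genes tested in this comparison, 17.2% were called and 8.21% were called lower. The choice of the 10 genes was made with results of these data known, so the count of 4 is a description and not independent evidence. All 10 log2 fold changes were below 0, with a median of -0.47 beside -0.00 over all genes tested.

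S100a4, which binds nonmuscle myosin and is known from motile cells, stood at 1154 and 1541 CPM in WT, at 857 and 1021 in STAT3-/- and at 696 and 475 in CD8+ STAT3-/-PD-1-/- T cells. The 3 genotypes did not overlap, and the order from high to low was WT, STAT3-/- and STAT3-/-PD-1-/-. S100a4 was 2.31-fold lower in STAT3-/-PD-1-/- than in WT cells (log2 fold change -1.21, SE 0.21, adjusted p = 0.013).

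S100a6, also called calcyclin, stood at 816 and 939 CPM in WT, at 692 and 735 in STAT3-/- and at 410 and 371 in CD8+ STAT3-/-PD-1-/- T cells. Its replicates lay closer to each other than those of S100a4, and the STAT3-/-PD-1-/- libraries were far below the other 4. It was 2.26-fold lower than in WT (log2 fold change -1.17, SE 0.11, adjusted p = 0.0028) and 1.83-fold lower than in STAT3-/- cells (log2 fold change -0.87, SE 0.11, adjusted p = 0.0065).

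Crip1 followed the same order, with 504 and 618 CPM in WT, 480 and 573 in STAT3-/- and 343 and 287 in STAT3-/-PD-1-/- CD8+ T cells. Here the WT and STAT3-/- libraries overlapped, and both STAT3-/-PD-1-/- libraries lay below all 4 of them. Crip1 was 1.79-fold lower than in WT (SE 0.15 on the log2 scale, adjusted p = 0.014) and 1.67-fold lower than in STAT3-/- cells (SE 0.15, adjusted p = 0.021).

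Lgals3, which encodes galectin-3, stood at 591 and 618 CPM in WT, at 520 and 578 in STAT3-/- and at 438 and 397 in CD8+ STAT3-/-PD-1-/- T cells. The step was smaller than for S100a4 and S100a6, with no overlap between STAT3-/-PD-1-/- and the rest. Lgals3 was 1.45-fold lower than in WT (log2 fold change -0.54, SE 0.11, adjusted p = 0.018) and 1.32-fold lower than in STAT3-/- cells (log2 fold change -0.40, SE 0.11, adjusted p = 0.046).

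The calls rested in part on single libraries. S100a6 against WT stayed called without any 1 of the 6 CD8+ libraries. Without STAT3-/-PD-1-/- replicate 2 the adjusted p was 0.082 for S100a4, 0.102 for Lgals3 and 0.097 for Crip1 against WT. Without WT replicate 2 it was 0.077 for Lgals3 and 0.056 for Crip1, and without STAT3-/-PD-1-/- replicate 1 it was 0.051 for Lgals3.

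The other 6 genes did not pass the test in this comparison, and their log2 fold changes ran from -1.04 to -0.05. Anxa1, a mediator known to restrain inflammation, stood at 36.1 and 70.2 CPM in WT and at 28.6 and 23.2 in STAT3-/-PD-1-/- CD8+ T cells (log2 fold change -1.04, SE 0.32, adjusted p = 0.067), and its WT replicates alone differed by nearly as much as the genotypes did. S100a11 stood at 156 and 136 against 108 and 114 CPM (log2 fold change -0.40, SE 0.12, adjusted p = 0.062). S100a10 stood at 768 and 981 against 755 and 643 CPM (log2 fold change -0.33, SE 0.16, adjusted p = 0.19). Anxa2, the partner of S100A10, stood at 1023 and 999 against 992 and 959 CPM (log2 fold change -0.06, SE 0.09), with both STAT3-/-PD-1-/- libraries below both WT ones by a small margin. Vim (-0.05, SE 0.09) and Lgals1 (-0.18, SE 0.13) had log2 fold changes of similar small size, and their libraries overlapped. With the replicate number as a block, S100a11 (adjusted p = 0.042) and Anxa1 (adjusted p = 0.046) were called lower as well, 6 of the 10 in all, where 24.7% of all genes were called. In all, 8 of the 10 genes had both STAT3-/-PD-1-/- libraries below both WT libraries, where 28.4% of all genes did.

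**Figure D1:**
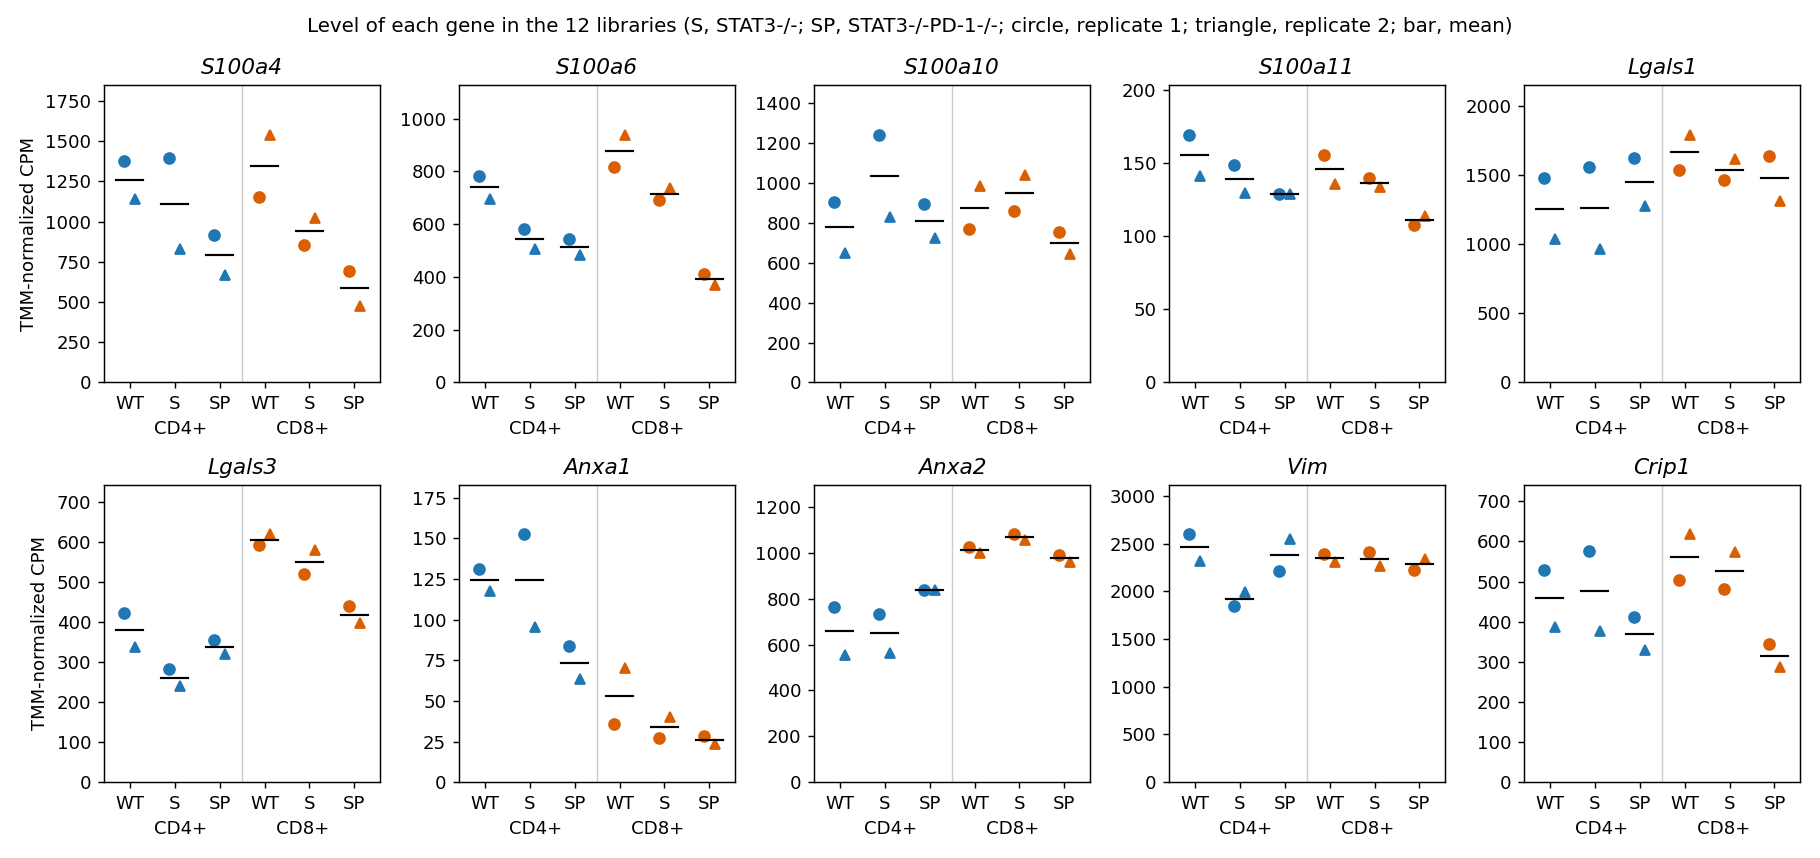
Level of each of the 10 genes in the 12 libraries, in TMM-normalized CPM from 0 on each vertical axis, with CD4+ groups on the left (blue) and CD8+ groups on the right (orange) of each panel. Circles are replicate 1, triangles replicate 2 and bars the mean of 2 libraries. S100a6 in CD8+ STAT3-/-PD-1-/- cells sits at 410 and 371 CPM, below all other libraries, while Vim sits between 2227 and 2412 CPM in the 6 CD8+ libraries.

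Removing PD-1 from cells that already lacked STAT3 was read from STAT3-/-PD-1-/- against STAT3-/- CD8+ T cells. S100a6, Lgals3 and Crip1 were lower, with the values given above, so 3 of the 10 genes were called where 16.8% of 12002 genes were called and 8.05% were called lower. S100a4 was 1.61-fold lower and missed the threshold (log2 fold change -0.69, SE 0.21, adjusted p = 0.064), as did S100a10 (-0.44, SE 0.16, adjusted p = 0.093). All 10 log2 fold changes were again below 0, with a median of -0.39 beside -0.00 over all genes. This comparison and that with WT share the STAT3-/-PD-1-/- libraries, so their counts are not independent. Lgals3 lost its call when any 1 of the 6 CD8+ libraries was left out. Without STAT3-/-PD-1-/- replicate 2 the adjusted p was 0.072 for S100a6 and 0.139 for Crip1, and without STAT3-/- replicate 2 it was 0.103 for Crip1.

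Loss of STAT3 alone gave 0 called genes of the set in CD8+ T cells, where 0.0583% of all genes were called. The deleted gene Stat3 itself was not called in this comparison (log2 fold change -1.46, SE 0.20, adjusted p = 0.11). The 0 calls therefore do not show that the set was unchanged. At an unadjusted p under 0.05, 2 of 10 passed, S100a4 (log2 fold change -0.52, SE 0.21) and S100a6 (-0.30, SE 0.11), where 11% of all genes passed. DESeq2 also called 0 of the 10, where it called 1.97% of all genes. Anxa2 and Vim had log2 fold changes of 0.08 and -0.01, each with an SE of 0.09.

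Cells of other types were looked for by marker genes in the same libraries. Neutrophil markers, which include S100a8 and S100a9, summed to at most 1.44 CPM over 10 genes in a library, and stellate cell and fibroblast markers, known to be rich in Vim, S100a4 and S100a6, summed to at most 1.35 CPM over 9 genes. The macrophage and monocyte list of 10 genes had a lower sum in STAT3-/-PD-1-/- cells of both subsets. It summed to 97.0 and 102 CPM in WT, to 81.2 and 102 in STAT3-/- and to 25.6 and 26.0 in STAT3-/-PD-1-/- CD8+ T cells. In CD4+ T cells the list summed to 56.7 and 69.7 CPM in WT, 46.5 and 57.4 in STAT3-/- and 21.5 and 18.8 in STAT3-/-PD-1-/-. Of 5 of its genes tested, 2 were called lower than in WT in CD8+ T cells, Itgam and Cd68, where 8.21% of all genes were, and 1 in CD4+ T cells, Itgam, where 5.65% were. Itgam, its most abundant gene in WT, stood at 67.2 and 67.1 CPM in WT and 8.07 and 6.55 in STAT3-/-PD-1-/- CD8+ T cells, and activated CD8+ T cells are known to express it as well. Cd68 stood at 28.7 and 29.1 CPM in WT, 27.0 and 27.8 in STAT3-/- and 17.0 and 18.5 in STAT3-/-PD-1-/- CD8+ T cells, where it was the most abundant gene of the list (log2 fold change against WT -0.71, SE 0.13, adjusted p = 0.015). Cd68 in CD4+ T cells lay between 5.90 and 10.4 CPM. Between 0 and 3 of its 10 genes were at 0 in a library. The other 8 genes, which include the defining markers Lyz2, Csf1r, Adgre1 and Clec4f, reached at most 1.65 CPM in any of the 12 libraries, the value of Clec4f in CD4+ WT replicate 2. Some of these low values were lower in STAT3-/-PD-1-/- cells and unequal between WT replicates: Lyz2 was at 0.175 and 1.21 CPM in WT against 0.0444 and 0.206 in STAT3-/-PD-1-/- CD8+ T cells, and Clec4f was at 0.219 and 1.49 against 0.222 and 0.0824. Adgre1 was at 0 in both STAT3-/-PD-1-/- CD8+ libraries. The NK cell list of 3 genes summed to 78.2 and 86.5 CPM in WT, 61.4 and 82.1 in STAT3-/- and 46.8 and 30.2 in STAT3-/-PD-1-/- CD8+ T cells, led by Klrb1c in WT. Of 2 of its genes tested, Klrb1c was called lower than in WT in these cells. In CD4+ T cells the list was higher, at 14.9 and 14.2 CPM in WT, 21.2 and 20.3 in STAT3-/- and 26.5 and 19.1 in STAT3-/-PD-1-/-, and Eomes, a transcription factor that effector T cells are known to express too, was called higher (log2 fold change against WT 1.40, SE 0.26, adjusted p = 0.016), where 7.21% of all genes were. Between 0 and 1 of its genes were at 0 in any of the 12 libraries. The B cell list of 5 genes, nearly all of it Cd79b, summed to 14.5 and 10.8 CPM in WT, 12.5 and 13.8 in STAT3-/- and 6.12 and 5.35 in STAT3-/-PD-1-/- CD8+ T cells, with 1 or 2 genes at 0 in these libraries. Of the B cell genes 1 was tested, and it was called lower than in WT. The sum of T cell genes was lower as well, in both subsets. The 7-gene T cell list summed to 4443 and 4051 CPM in WT and to 3127 and 2945 in STAT3-/-PD-1-/- CD8+ T cells. Of the 7, 3 were called lower, where 8.21% of all genes were, and Cd8a stood at 1174 and 1347 against 597 and 594 CPM. In CD4+ T cells the list summed to 5268 and 4333 CPM in WT and to 3869 and 3465 in STAT3-/-PD-1-/-. Of the 7, 1 was called lower, where 5.65% of all genes were, and Cd4 stood at 1827 and 1879 against 1326 and 1252 CPM. The part of these changes in the result was not tested. In sorted bulk cells, fewer cells of a type and less RNA per cell cannot be told apart.

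In CD4+ T cells, 0 of the 10 genes were called in any of the 3 genotype comparisons by edgeR in the fit to all 6 CD4+ libraries with the default filter on low counts and no replicate block, and 1, 3 and 3 were called with the replicate number as a block. Other fits without a block called up to 3 in a comparison, among S100a4, S100a6 and Anxa1. For STAT3-/-PD-1-/- against WT, where 12.9% of 11959 genes were called, the nearest were S100a6, at 784 and 697 against 544 and 483 CPM (log2 fold change -0.52, SE 0.15, adjusted p = 0.058), and Anxa1, at 131 and 118 against 83.6 and 63.2 CPM (-0.75, SE 0.24, adjusted p = 0.085). S100a4 stood at 1375 and 1139 against 917 and 666 CPM (-0.66, SE 0.26, adjusted p = 0.15). These and S100a11, 4 of the 10, had lower values in both STAT3-/-PD-1-/- libraries than in both WT libraries, where 28.6% of all genes did. S100a4, S100a6 and Anxa1 were the 3 of 10 with an unadjusted p under 0.05, where 28.7% of all genes had one. DESeq2 called S100a6 and Anxa1, where it called 18.1% of all genes. With the block all 3 were called lower (adjusted p = 0.00923 for S100a4, 0.00901 for S100a6 and 0.00752 for Anxa1), where 26% of all genes were called. Of the 10 log2 fold changes, 7 were below 0, with a median of -0.22 beside -0.01 over all genes.

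The remaining genes did not share a direction in CD4+ T cells. Both STAT3-/-PD-1-/- libraries lay above WT for Anxa2, at 839.7 and 839.2 CPM against 766 and 553 in WT (log2 fold change 0.36, SE 0.19, adjusted p = 0.28), and Lgals1 had a log2 fold change of 0.22 (SE 0.26). Crip1 stood at 530 and 388 against 410 and 330 CPM, with overlap between the groups (-0.30, SE 0.24).

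STAT3-/- against WT CD4+ T cells, where 0.334% of 11959 genes were called, gave unadjusted p under 0.05 for 3 of the 10, where 10.5% of all genes had one: Lgals3, at 283 and 239 against 422 and 338 CPM, S100a6, at 581 and 504 against 784 and 697 CPM, and Vim, at 1848 and 1992 against 2597 and 2321 CPM. These 3 of 10 were lower in both STAT3-/- libraries, where 18.7% of all genes were (log2 fold changes -0.54, -0.45 and -0.36, adjusted p = 0.28, 0.30 and 0.39), and DESeq2 called 0 of the 10, where it called 2.27% of all genes. With the block Lgals3 was called (adjusted p = 0.047), where 2.53% of all genes were. Without the block, the deleted gene Stat3 itself was not called here (log2 fold change -1.46, SE 0.22, adjusted p = 0.055). STAT3-/-PD-1-/- against STAT3-/- CD4+ T cells, where 11.1% of all genes were called, had 2 with an unadjusted p under 0.05, Anxa1 (-0.75, SE 0.24, adjusted p = 0.090) and Vim (0.32, SE 0.13, adjusted p = 0.16), where 29.4% of all genes had one. DESeq2 called 1 of the 10 there, Anxa1, where it called 17.9% of all genes. With the block S100a4 and Anxa1 were called lower and Lgals3 higher (adjusted p = 0.041, 0.011 and 0.036), where 26% of all genes were called.

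**Figure D2:**
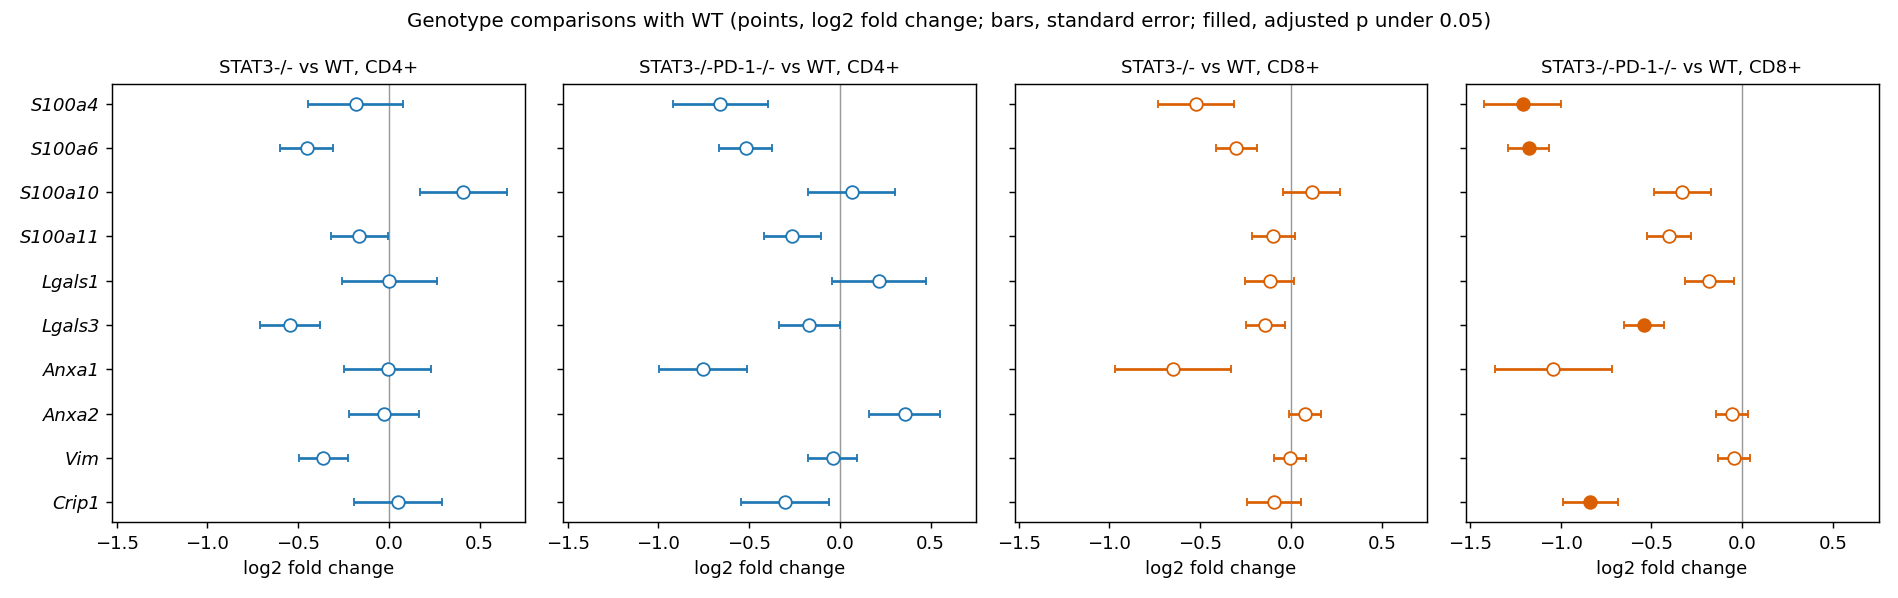
Log2 fold changes of the 10 genes against WT (horizontal axis) with standard errors as bars, for STAT3-/- and STAT3-/-PD-1-/- T cells, CD4+ in blue and CD8+ in orange. Filled points have an adjusted p under 0.05 by edgeR. Filled points appear in the CD8+ STAT3-/-PD-1-/- panel alone, at S100a4 (-1.21), S100a6 (-1.17), Lgals3 (-0.54) and Crip1 (-0.84).

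Whether the genotype changes differed between CD8+ and CD4+ T cells was tested by interaction terms over all 12 libraries. None of the 10 genes was called, in fits that called 0, 1 and 0 of 12334 genes (0%, 0.00811% and 0%) for STAT3-/- against WT, STAT3-/-PD-1-/- against WT and STAT3-/-PD-1-/- against STAT3-/-. So edgeR did not show a difference between the subsets for any of these genes at this number of libraries. The lowest p of the set was that of S100a6, whose change from STAT3-/- to STAT3-/-PD-1-/- was lower in CD8+ than in CD4+ T cells by 0.80 on the log2 scale (interaction -0.80, SE 0.18, unadjusted p = 0.0013, adjusted p = 0.54). DESeq2 called it with an adjusted p of 0.044, where it called 0.197% of all genes, and called no other gene of the set in the 3 interactions. For the change from WT to STAT3-/-PD-1-/- its interaction was -0.64 (SE 0.18, unadjusted p = 0.0052, adjusted p = 0.44). At an unadjusted p under 0.05, 1, 1 and 3 of the 10 passed in the 3 interactions, where 1.85%, 4.43% and 3.59% of all genes did.

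Between CD8+ and CD4+ T cells themselves, Anxa1 was called in all 3 genotypes, and Lgals3 and Anxa2 were called in WT and STAT3-/- cells. In WT cells, 3 of the 10 genes were called, where 10.5% of 12334 genes were: Lgals3 and Anxa2 were higher in CD8+ T cells and Anxa1 was lower. Lgals3 stood at 591 and 618 CPM in CD8+ against 422 and 338 in CD4+ T cells (1.59-fold, adjusted p = 0.015), and Anxa2 at 1023 and 999 against 766 and 553 (1.53-fold, adjusted p = 0.040). Anxa1 stood at 36.1 and 70.2 against 131 and 118 CPM, 2.35-fold lower (adjusted p = 0.037).

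The same 3 genes were called with the same signs in STAT3-/- cells, where 9.62% of all genes were called. Lgals3 was 2.11-fold higher in CD8+ T cells (520 and 578 against 283 and 239 CPM, adjusted p = 0.0014), Anxa2 1.65-fold higher (adjusted p = 0.021) and Anxa1 3.66-fold lower (27.3 and 40.4 against 153 and 95.7 CPM, adjusted p = 0.0062). With genotype and replicate number together, taken to mark the pool of recipients, as a block, 5 of the 10 were called in STAT3-/- cells, S100a6 and Vim being added as higher in CD8+ T cells, where 24.9% of all genes were called.

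In STAT3-/-PD-1-/- cells 1 gene was called, Anxa1, 2.84-fold lower in CD8+ T cells (28.6 and 23.2 against 83.6 and 63.2 CPM, adjusted p = 0.032), where 4.14% of all genes were. With the block 2 were called, where 14.4% of all genes were, the second being S100a6, which was lower in CD8+ T cells here (410 and 371 against 544 and 483 CPM, log2 difference -0.40, SE 0.13, adjusted p = 0.14 without the block). In WT and STAT3-/- cells the CD8+ libraries had been the higher ones for S100a6, at 816 and 939 against 784 and 697 CPM and at 692 and 735 against 581 and 504. Lgals3 had a log2 difference of 0.31 (SE 0.14, adjusted p = 0.35) and Anxa2 of 0.22 (SE 0.16). For each of these genes both CD8+ libraries still lay above both CD4+ libraries, where 24.6% of all genes did.

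Some of these calls depended on single libraries. Lgals3 in STAT3-/- cells was called without any 1 of the 12 libraries. In WT cells Lgals3 lost its call without CD4+ WT replicate 2 (adjusted p = 0.121), CD8+ WT replicate 1 (0.067) or CD8+ WT replicate 2 (0.075). Anxa1 in WT cells had an adjusted p of 0.137, 0.104 and 0.228 without CD4+ WT replicate 1, CD4+ WT replicate 2 and CD8+ WT replicate 1, and 0.051 to 0.055 without any 1 of the 4 STAT3-/-PD-1-/- libraries. Anxa2 in WT cells had an adjusted p of 0.260, 0.176 and 0.115 without CD4+ WT replicate 2, CD8+ WT replicate 1 and CD8+ WT replicate 2, and 0.050 to 0.063 without any 1 of the STAT3-/-PD-1-/- or CD8+ STAT3-/- libraries. Anxa2 in STAT3-/- cells lost its call without CD4+ STAT3-/- replicate 2 (0.142), CD8+ STAT3-/- replicate 1 (0.116) or CD8+ STAT3-/- replicate 2 (0.078). Anxa1 in STAT3-/- cells had an adjusted p of 0.071 without CD8+ STAT3-/- replicate 1, and Anxa1 in STAT3-/-PD-1-/- cells lost its call without any 1 of the 4 libraries of that genotype.

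**Figure D3:**
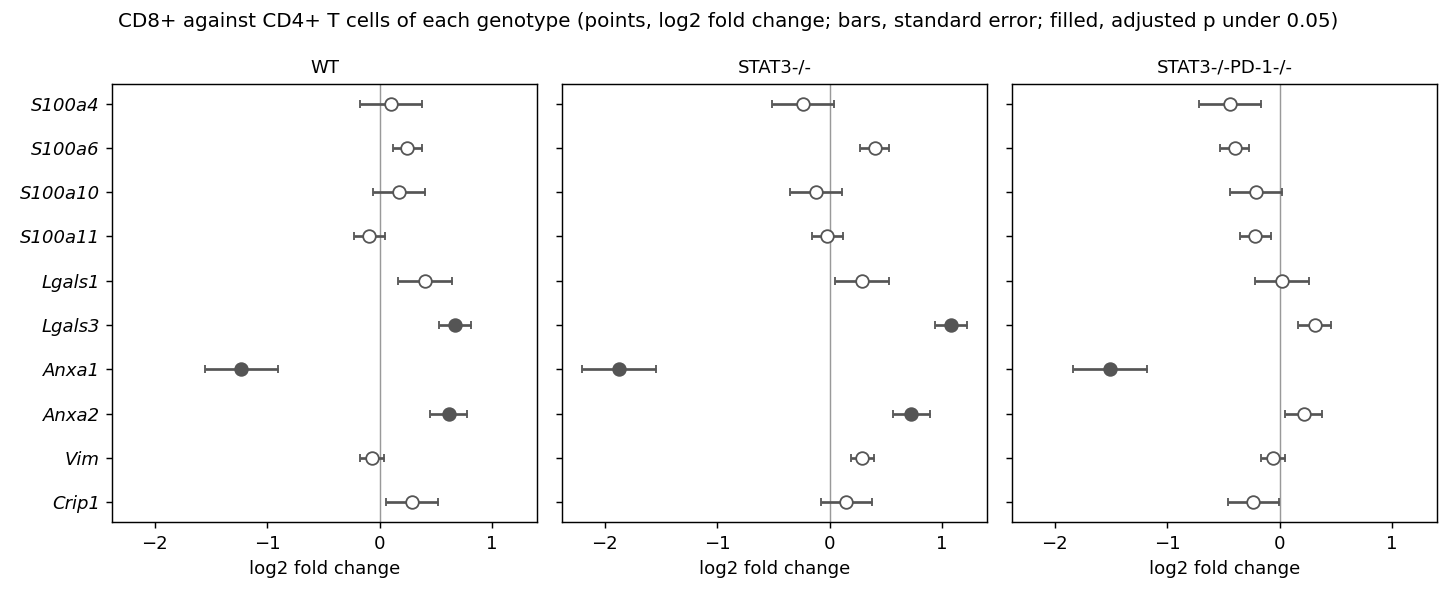
Log2 fold changes of CD8+ against CD4+ T cells for the 10 genes (horizontal axis, values above 0 are higher in CD8+) in each genotype, with standard errors as bars and filled points for an adjusted p under 0.05 by edgeR. Anxa1 is filled and below 0 in all 3 panels (-1.23, -1.87 and -1.50), and S100a6 passes from 0.24 and 0.40 to -0.40.

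Ordered by mean over the 6 groups, S100a6 was highest in CD8+ WT cells (878 ± 87.1 CPM, SD, n = 2), followed by CD4+ WT (740 ± 61.4), CD8+ STAT3-/- (713 ± 30.8), CD4+ STAT3-/- (543 ± 54.4), CD4+ STAT3-/-PD-1-/- (514 ± 42.8) and CD8+ STAT3-/-PD-1-/- (390 ± 27.8). The libraries of CD4+ WT and CD8+ STAT3-/- overlapped, as did those of CD4+ STAT3-/- and CD4+ STAT3-/-PD-1-/-. S100a4 had the same highest and lowest groups, 1348 ± 274 and 585 ± 156 CPM, but its CD4+ groups spread widely, with 1393 and 828 CPM in the CD4+ STAT3-/- libraries.

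Replicates of a CD4+ group differed from each other in most genes of the set at once. Replicate 1 was the higher library for 10 of 10 genes in CD4+ WT cells, 9 of 10 in CD4+ STAT3-/- and 9 of 10 in CD4+ STAT3-/-PD-1-/-, with median log2 differences of 0.30, 0.48 and 0.24 where all genes had medians of 0.01, -0.03 and -0.01. In CD8+ cells it was the higher one for 3 of 10 in WT, 3 of 10 in STAT3-/- and 8 of 10 in STAT3-/-PD-1-/-, with medians of -0.21, -0.15 and 0.19 where all genes had -0.02, -0.01 and -0.01.

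As a description over the 12 libraries, with the mean of each subset removed, S100a4 ran closest to Crip1 (Pearson r = 0.93), Anxa1 (0.92) and S100a6 (0.90). Vim had an r of 0.57 with Lgals3 and 0.33 with Anxa2, while its r with S100a10 of -0.49 was the lowest of any pair. Anxa2 had an r near 0 with S100a4 (0.002) and S100a6 (0.04). The libraries share groups and replicate differences, and these values carry no test. Among 8596 other genes, the 5 most like the mean of the set were Yipf1 (r = 0.96), Mcoln2 (0.95), Clic1 (0.94), Gng10 (0.94) and Atp6v1h (0.93). Gng10 encodes a G protein subunit, Atp6v1h a subunit of the vacuolar proton pump and Clic1 an abundant chloride channel protein, at 628 to 778 CPM in CD8+ cells. They were chosen for their likeness to the set over the same libraries, so no test of their genotype changes is given.

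Of the relatives of the 10 genes, a part passed the filter on low counts and a few were called. The shares of all genes called lower and higher in STAT3-/-PD-1-/- cells, against which the counts of the lists below stand, were 8.21% and 9.01% against WT and 8.05% and 8.76% against STAT3-/- in CD8+ T cells, and 5.65% and 7.21% against WT and 5.03% and 6.05% against STAT3-/- in CD4+ T cells. Of 11 other S100 genes, 3 passed the filter on low counts, and 1 was called, S100a13, which lies in the same cluster. S100a13 stood at 78.5 and 93.5 CPM in WT, 71.3 and 82.2 in STAT3-/- and 54.3 and 52.7 in STAT3-/-PD-1-/- CD8+ T cells, 1.61-fold lower than in WT (adjusted p = 0.018) and 1.44-fold lower than in STAT3-/- cells (adjusted p = 0.040). Of 10 other annexins, 6 were tested. Anxa5, known for binding phosphatidylserine, fell in CD8+ T cells, from 106 and 106 CPM in WT to 79.0 and 76.8 in STAT3-/-PD-1-/- (log2 fold change -0.45, SE 0.11, adjusted p = 0.036), and Anxa5 and Anxa6 were called lower than in STAT3-/- cells (-0.51 and -0.38, adjusted p = 0.025 and 0.045). Anxa9 was higher in STAT3-/-PD-1-/- CD4+ T cells, at 3.94 and 3.72 CPM against 1.13 and 1.82 in WT (adjusted p = 0.034), and was called higher than in STAT3-/- cells also. Of 9 other genes with a galectin (Lgals) symbol, which include the galectin-binding protein gene Lgals3bp, 6 were tested. Of these, 1 was called higher and 1 lower in STAT3-/-PD-1-/- than in STAT3-/- CD8+ T cells. Lgals7 was the higher one (log2 fold change 2.52, SE 0.47, adjusted p = 0.017), at 1.11 and 0.865 against 0.171 and 0.164 CPM, low levels throughout. Lgals9, which encodes galectin-9, was the lower one, at 93.1 and 112 against 144 and 146 CPM (adjusted p = 0.037), and Lgals7 was also higher in STAT3-/-PD-1-/- than in WT CD4+ T cells, at 29.4 and 21.1 against 13.7 and 6.64 CPM (adjusted p = 0.049).

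Of 12 genes for partners and receptors of these proteins, 10 were tested in CD8+ and 9 in CD4+ T cells. In CD8+ T cells 4 were lower (Cd7, Ptprc, Plec and Ahnak) and 2 higher (Cacybp and Plaur) in STAT3-/-PD-1-/- than in WT, where 8.21% of all genes were called lower and 9.01% higher. The same 4 were lower and 1 was higher, Cacybp, than in STAT3-/-, where 8.05% and 8.76% of all genes were. Cd7, a glycoprotein that galectin-1 binds, had the lowest fold change of the list, from 68.7 and 63.7 CPM in WT and 47.6 and 66.6 in STAT3-/- to 16.9 and 14.7 in STAT3-/-PD-1-/- CD8+ T cells (log2 fold change against WT -2.07, SE 0.19, adjusted p = 0.0024). It was lower in CD4+ T cells too, at 20.9 and 17.0 against 59.3 and 42.7 CPM in WT (-1.42, SE 0.21, adjusted p = 0.0087). Ptprc, which encodes CD45, another galectin-1 ligand, was lower in CD8+ T cells (-0.63, SE 0.11, adjusted p = 0.014). Cacybp, which encodes the S100A6-binding protein, went the other way from S100a6, at 73.1 and 80.6 CPM in WT and 127 and 117 in STAT3-/-PD-1-/- CD8+ T cells (0.66, SE 0.12, adjusted p = 0.015).

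Ahnak, a giant scaffold that the S100A10 and annexin A2 complex binds, stood in CD8+ T cells at 2626 and 2667 CPM in WT, at 4107 and 4578 in STAT3-/- and at 2027 and 1716 in STAT3-/-PD-1-/-. For the same genotypes the CD4+ libraries held 3453 and 3506, 4580 and 5568, and 2669 and 2340 CPM. In both subsets the STAT3-/- libraries lay above WT (log2 fold changes 0.71 and 0.54, adjusted p = 0.12 and 0.21 in CD8+ and CD4+ cells) and the STAT3-/-PD-1-/- libraries below it. Ahnak was lower in STAT3-/-PD-1-/- than in STAT3-/- cells of both subsets (CD8+ -1.22, SE 0.11, adjusted p = 0.0027, and CD4+ -1.01, SE 0.14, adjusted p = 0.0098), and its log2 fold changes against WT were -0.51 (SE 0.11, adjusted p = 0.022) and -0.47 (SE 0.14, adjusted p = 0.067). Plaur was called higher in CD8+ T cells but stood below 2 CPM in all 12 libraries. In CD4+ T cells the list had 2 lower against WT, Cd7 and Mgat5, where 5.65% of all genes were called lower, and 3 lower against STAT3-/-, these and Ahnak, where 5.03% were. Mgat5 encodes an enzyme that builds the branched glycans galectin-3 binds (log2 fold changes -0.97 and -0.82, adjusted p = 0.018 and 0.034).

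A list of migratory effector T cell genes held 12, not all of them linked to migration itself, since Txn1 encodes thioredoxin. In STAT3-/-PD-1-/- against WT CD8+ T cells, 5 were lower (Ahnak again, Cd44, Emp3, Itgal and Lsp1) and 1 was higher (Txn1). Of all genes, 8.21% were called lower and 9.01% higher. The median of the list was -0.31 on the log2 scale. Against STAT3-/- cells 7 were lower and 1 was higher (Capg), where 8.05% and 8.76% of all genes were, and the median was -0.49. Myadm had the lowest fold change of these, at 21.9 and 11.7 against 57.8 and 40.2 CPM in STAT3-/- (-1.55, SE 0.39, adjusted p = 0.037), and its WT libraries stood at 34.8 and 18.6 CPM. Cd44, the hyaluronan receptor, stood at 388 and 356 CPM in WT and 244 and 228 in STAT3-/-PD-1-/- CD8+ T cells (log2 fold change -0.66, SE 0.12, adjusted p = 0.014). Lsp1 (-0.48) and Itgal (-0.46) were lower as well. Itgb1, the beta 1 integrin chain, stood at 1012 and 916 CPM in WT, 1527 and 1624 in STAT3-/- and 870 and 801 in STAT3-/-PD-1-/- CD8+ T cells, lower than in STAT3-/- (-0.92, SE 0.10, adjusted p = 0.0045) and not called against WT (-0.21, SE 0.10, adjusted p = 0.20). In CD4+ T cells it stood at 2171 and 1644, 3595 and 2698, and 984 and 997 CPM, lower than in STAT3-/- (-1.66, SE 0.19, adjusted p = 0.0069) and than in WT (-0.94, SE 0.19, adjusted p = 0.020). As for Ahnak, the STAT3-/- libraries were the highest of the 3 genotypes in both subsets. In CD4+ T cells, Cd44 and Itgb1 were the 2 of 12 called lower against WT, where 5.65% of all genes were, and Itgb1 and Ahnak the 2 called lower against STAT3-/-, where 5.03% were.

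Some genes of naive T cells were lower as well. Of 6, 3 were called lower in STAT3-/-PD-1-/- than in WT CD4+ T cells (Tcf7, Il7r and S1pr1), where 5.65% of all genes were called lower, and 1 in CD8+ T cells (S1pr1), where 8.21% were. The same 3 and the same 1 were called lower against STAT3-/- cells. Of the 6 log2 fold changes against WT, 6 were below 0 in CD4+ T cells, and 5 were below and 1 above 0 in CD8+ T cells. Tcf7, which encodes the transcription factor TCF-1, stood at 132 and 188 CPM in WT and 18.0 and 24.9 in CD4+ STAT3-/-PD-1-/- T cells (log2 fold change -2.89, SE 0.24, adjusted p = 0.0021). S1pr1, the receptor that guides exit from lymphoid tissue, stood at 354 and 242 CPM in WT and 184 and 145 in CD8+ STAT3-/-PD-1-/- T cells (log2 fold change -0.87, SE 0.22, adjusted p = 0.038). For STAT3-/- against WT, these lists together with Crip2 held 42 genes tested in CD4+ and 43 in CD8+ T cells. Of these, edgeR called 0 and 0, where 0.334% and 0.0583% of all genes were called. An unadjusted p under 0.05 was found for 3 and 4 of them, where 10.5% and 11% of all genes had one, and DESeq2 called 0 and 2, Ahnak and Itgb1, where it called 2.27% and 1.97% of all genes. Most of the 52 calls for genes of these lists and Spp1, a bile duct marker, did not hold when some 1 library was left out. The 2 calls that were not lost under any setting were those of Tcf7 in CD4+ and of Cd7 in CD8+ T cells for STAT3-/-PD-1-/- against WT.

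**Figure D4:**
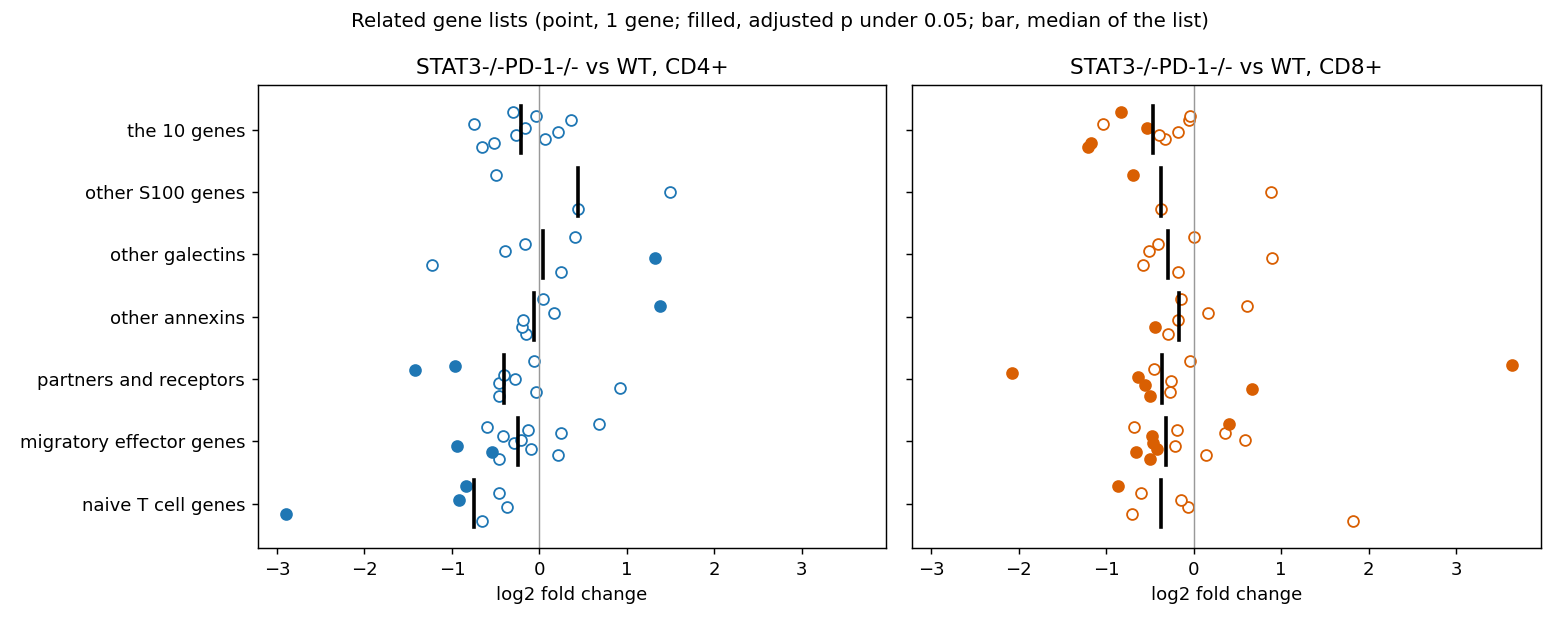
Log2 fold changes of STAT3-/-PD-1-/- against WT (horizontal axis) for the 10 genes and 6 related lists, CD4+ on the left and CD8+ on the right, with 1 point a gene, filled for an adjusted p under 0.05 by edgeR, and a bar at the median of each list. The medians of the 10 genes are -0.22 in CD4+ and -0.47 in CD8+ T cells, and the naive T cell list has medians of -0.75 and -0.37.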

How the data were processed

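RNA-seq reads of sorted donor CD4+ and CD8+ T cells were, per the study's methods, aligned to mm10 and counted per RefSeq gene by the authors, who deposited 1 table of raw counts and 1 of RPKM values. The strand setting of the counting is not given in the sources used here. The labels carry a growth and library protocol of another cell line, which was not used. From the deposited counts, genes passing filterByExpr (a count of 10, a total of 15) were scaled by TMM and tested with edgeR 4.0.16 (R 4.3.3), glmQLFit and glmQLFTest, with Benjamini-Hochberg adjustment over all genes tested and a threshold of 0.05. Genotype comparisons used 1 fit to the 6 libraries of each subset (3 residual degrees of freedom) and subset comparisons and interactions 1 fit to all 12 (6). SE is that of the log2 fold change, computed as its absolute value over the square root of the F statistic of the edgeR test. The deposited RPKM values served only for limma 3.58.1 on log2(RPKM + 1) and log2(RPKM + 0.1) as alternatives. Levels per kilobase were computed from the counts. DESeq2 1.42.0, other filters and scalings, a replicate block and leaving out each library were further alternatives.

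CD4+ and CD8+ T cells came from the same livers per the study's text, which does not tie replicate numbers to a pool of recipients. The deviations of CD4+ and CD8+ libraries with the same genotype and number from group means correlated (r = 0.59, 0.58 and 0.65 for WT, STAT3-/- and STAT3-/-PD-1-/-), and genotype and number together, taken to mark the pool, were the block where subset comparisons were refitted with one. Across genotypes, the serial numbers in the sample titles run on within each replicate number, and the study's methods speak of 2 batches, for T cell receptor sequencing. Same-numbered CD4+ libraries of different genotypes also deviated together (r = 0.63, 0.30 and 0.20), CD8+ libraries less so (0.65, 0.16 and 0.06). The reported fits have no block, and blocked values stand beside the results they change. Each library pools 3 recipients, and 2 libraries a group give the p-values their spread.

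The 10 genes and the other lists were chosen with earlier results of these data known. From other lists, genes called in a genotype comparison were named, the 4 of largest absolute fold change a list and comparison first, others after their values were seen, and 1 gene of the naive T cell list is not reported here. The 5 genes most like the set were those with the highest Pearson r to its mean, after leaving out genes whose mean log2 CPM was under 3. Promoters were printed for genes whose window held TTCNNNGAA or TGANTCA. Marker lists covered T cells, macrophages, neutrophils, B cells, NK cells, stellate cells, endothelial cells, hepatocytes, bile duct and erythroid cells. Figures were drawn with matplotlib 3.10.9.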

Additional observations from a re-analysis of the deposited data

How the results depend on the processing

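S100a4, S100a6, Lgals3 and Crip1 were called lower in STAT3-/-PD-1-/- than in WT CD8+ T cells under DESeq2 (6 called), DESeq2 size factors (4), no minimum beyond 1 count (5), at least 10 counts in every library (4), the replicate block (6) and the 4 libraries compared alone (5), which called 2725, 2049, 2335, 1961, 2965 and 1944 of all genes against 2066. Against STAT3-/- CD8+ T cells, DESeq2 and the 1-count filter called 5 (S100a4 and S100a10 added) among 2813 and 2407 of all genes against 2017, and the 4-library fit called 3, with S100a4 in place of Lgals3. In CD4+ T cells, STAT3-/-PD-1-/- against WT had 2 called (S100a6 and Anxa1) by DESeq2 and with the 1-count filter and 3 (with S100a4) in the 4-library fit, and against STAT3-/- each of the first pair of settings called 1, Anxa1. DESeq2 called 1 gene, S100a6, in the interaction of STAT3-/-PD-1-/- against STAT3-/-. The cause was not tested.

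With the replicate number as a block, 1 gene (Lgals3) was called for STAT3-/- against WT in CD4+ T cells, 3 (S100a4, S100a6 and Anxa1) for STAT3-/-PD-1-/- against WT and 3 (S100a4 and Anxa1 lower, Lgals3 higher) against STAT3-/-. With genotype and number as the block, CD8+ against CD4+ gave 5 in STAT3-/- and 2 in STAT3-/-PD-1-/- cells. The block changed no other count of the set, apart from that of 6 given above. Among all genes, blocks raised the calls from 40 to 303, 1538 to 3104 and 1324 to 3105 in the CD4+ genotype comparisons, and from 1294 to 2991, 1187 to 3077 and 511 to 1774 for CD8+ against CD4+.

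For STAT3-/- against WT, DESeq2 called 271 genes and the 1-count filter 165, against 40, in CD4+ and 218 and 66, against 7, in CD8+ T cells. The 4-library fit called 1 and 0, and the filter of 10 counts in every library 1 in CD8+. DESeq2 called 2100 against 1324 for STAT3-/-PD-1-/- against STAT3-/- in CD4+ T cells. In the interactions DESeq2 called 5, 75 and 21 genes against 0, 1 and 0, the 1-count filter 50 and 9 in the last pair, and the block 84 and 22.

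Leaving out 1 library at a time, the counts of the set ranged from 1 to 5 for STAT3-/-PD-1-/- against WT and from 0 to 3 against STAT3-/- in CD8+ T cells, from 0 to 3 and from 0 to 1 in CD4+ T cells, from 0 to 3, 1 to 3 and 0 to 1 for CD8+ against CD4+ in WT, STAT3-/- and STAT3-/-PD-1-/- cells, and stayed at 0 for STAT3-/- against WT and the interactions. A group left with 1 library was assumed to vary like the others. Lgals1 changed sign for CD8+ against CD4+ in STAT3-/- cells, from 0.29 to -0.020 without CD4+ STAT3-/- replicate 2, and was 0.67 without replicate 1. Sign changes of uncalled values within 1 SE of 0 numbered 9 over the other settings and 70 over the leave-one-out fits. Lgals3 for STAT3-/-PD-1-/- against STAT3-/- CD8+ T cells also missed the threshold on RPKM values. Of the 52 calls for related genes, all kept their sign, 9 were lost under a setting other than leaving out a library, and 50 without some 1 library.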

Other observations

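The remaining marker lists hold values outside the comparisons above. The endothelial list summed to 111 to 197 CPM, nearly all of it Pecam1, at 177 and 182 CPM in CD4+ and 116 and 128 in CD8+ WT T cells. The hepatocyte list summed to 1.40 to 5.11 CPM. In CD8+ T cells it was at 1.62 and 3.74 in WT, 1.45 and 1.88 in STAT3-/- and 3.24 and 5.11 in STAT3-/-PD-1-/-. Of 3 of its genes tested there, 1 was called higher in STAT3-/-PD-1-/- than in STAT3-/- cells, where 8.76% of all genes were, and 0 than in WT. The part of this change in the result was not tested. The erythroid list summed to at most 0.564 CPM. The bile duct list summed to 4.91 to 17.0 CPM. Its gene Spp1, named after its values were seen, encodes the cytokine osteopontin, and T cells can express it. Spp1 was higher in STAT3-/-PD-1-/- than in WT CD8+ T cells, at 5.32 and 6.71 against 1.45 and 1.53 CPM (log2 fold change 2.01, SE 0.28, adjusted p = 0.0076). It was also called higher than in STAT3-/- cells, in CD8+ (log2 fold change 4.15) and in CD4+ T cells (3.33). Each of these calls was lost without STAT3-/-PD-1-/- replicate 2 of its subset.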
